A study of Mus musculus with 49 samples.

Results

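Genes of the bone morphogenetic protein (BMP) pathway and the Id genes, which BMP signals commonly induce, were followed through single cells of the early mouse kidney. The set was fixed by gene symbol as the ligands Bmp4 and Bmp7, the antagonist Grem1, the receptor Bmpr1a, the signal transducers Smad1 and Smad5, and the target genes Id1, Id2 and Id3. Of these 9 genes 8 had a row among the 13093 genes of the table, and Grem1 was not analysed here. RNA had been sequenced from 49 individual cells of the metanephric mesenchyme, the tissue around the ureteric bud that gives rise to nephrons and kidney stroma, at 11.5 dpc (Theiler stage 19). All cells came from embryos of both sexes on a mixed background that carried the Tg(Crym-EGFP)82Gsat transgene, a green fluorescent reporter under the control of Crym, and there was no other genotype or treatment. The dissection was guided by that fluorescence and took in a few cells past its edge. Since no embryo or litter is named, all cells were taken as 1 group and 1 sample. Single cells do not stand in for replicates, and no p-value is given.

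BMP ligands are secreted dimers that bring type I receptors such as Bmpr1a together with type II receptors. The type I receptor phosphorylates Smad1 and Smad5, which join Smad4 and act on target genes in the nucleus. Id proteins lack a DNA binding region and hold back basic helix-loop-helix factors by pairing with their E protein partners. In the developing mouse kidney, Bmp7 is required to maintain nephron progenitors, Bmp4 limits ectopic ureteric budding, and Grem1 relieves that limit so that the bud can grow out.

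Values are RPKM, the reads of a gene scaled to its length and to all mapped reads of the cell, and a gene was counted as found in a cell at 1 RPKM or more. Steps between low values showed what 1 read was worth, which gave a total of 1275283 to 2798171 reads in 47 cells, with a median over all cells of 1841201. Cell 3 had only 63745 reads and cell 7 had 85079, so a single read there weighs far more. All libraries ran in the same lane, per the file headers. The number of genes found per cell ran from 3610 to 6510, with a median of 5210. The interval beside a share of cells is the exact 95% binomial one (Clopper-Pearson) and covers only the counting of cells. It treats cells as independent draws, which 1 sample cannot check, and leaves out differences between embryos. Cell 25 also held 9 of 11 ureteric bud markers. Cell 27 held all 8 endothelial markers and both macrophage markers that have a row. These cells were kept, and the other cells had at most 3 ureteric bud markers, 1 endothelial marker and 1 macrophage marker.

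Cells were sorted into 4 classes by 2 transcription factor genes at 1 RPKM, Six2, which maintains nephron progenitors, and Foxd1, which marks stromal progenitors. Six2 without Foxd1 was found in 18 cells (Six2-only cells), Foxd1 without Six2 in 15 (Foxd1-only cells), both in 9 and neither in 7. The classes rest on measured values of these 2 genes, so they are not labelled groups. The shallow cell 3 counted as having both through 1 read of Six2 and 3 of Foxd1. Cell 7 counted as Foxd1-only through 3 reads of Foxd1, and 1 read of Six2 there would have been worth 5.58 RPKM. The 12 nephron progenitor markers had a median summed level of 866 RPKM in Six2-only cells and 123 RPKM in Foxd1-only cells. The 10 stroma markers had 143 RPKM in Six2-only cells and 628 RPKM in Foxd1-only cells. The lists include Six2 with Crym, and Foxd1, respectively, so the sums are no independent check of the classes. Crym alone had a median of 521 RPKM in Six2-only cells and 1.96 RPKM in Foxd1-only cells. The median number of genes found was 4961 in Six2-only cells, 5232 in Foxd1-only cells, 5670 in cells with both and 4246 in cells with neither.

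Among the ligands, Bmp4 was rare and reached high levels in some of the cells that had it. Bmp4 (gene ID 12159; chr14:47003196-47010274 in mm9) was found in 10 of 49 cells (20.4%, interval 10.2 to 34.3%) and listed at 0 in 33. Cell 22 had the highest level, 181 RPKM, and cells 4, 45 and 19 followed with 79.4, 68.8 and 63.0 RPKM. Cells 14, 49 and 12 had 19.9, 16.2 and 14.2 RPKM. Lower still were cell 29 with 6.19 RPKM, cell 39 with 3.04 RPKM and cell 6, the lowest of the 10. A further 6 cells had between 0.238 and 0.393 RPKM of Bmp4, which is 1 read in each. The 10 cells thus ran from 5 reads of Bmp4 (cell 6) to 696 (cell 22), and the other cells had at most 1. By class, Bmp4 was found in 4 of 18 Six2-only cells, 1 of 15 Foxd1-only cells, 2 of 9 cells with both and 3 of 7 cells with neither. Cell 22, the highest, had neither Six2 nor Foxd1 at 1 RPKM, and its Crym level was 3.50 RPKM.

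Bmp7 was found in more cells but at lower levels than the strongest Bmp4 cells. Bmp7 (gene ID 12162; chr2:172695189-172765794) reached the threshold in 18 cells (36.7%, interval 23.4 to 51.7%). Their median was 10.8 RPKM, and cell 35 had the most, 47.1 RPKM. It was listed at 0 in 27 cells. Bmp4 and Bmp7 were found together in 6 cells (cells 4, 6, 12, 19, 39 and 49), where independent detection would give 3.67, and at least 1 of them was found in 22 cells. Across the 49 cells, whose libraries share a lane, the Spearman correlation of the 2 ligand genes was 0.04.

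Bmp7 stood out by Six2 and Foxd1 status. In Six2-only cells its lowest, median and highest levels were 0, 0.170 and 38.3 RPKM. In Foxd1-only cells they were 0, 0 and 19.3 RPKM, in cells with neither 0, 0 and 30.3 RPKM. In cells with both they were 0, 7.03 and 47.1 RPKM. The 4 ranges overlap, but 8 of the 9 cells with both had the gene, against 6 of 18 Six2-only, 2 of 15 Foxd1-only and 2 of 7 with neither. In percent, these shares were 88.9% (interval 51.8 to 99.7%), 33.3% (13.3 to 59.0%), 13.3% (1.66 to 40.5%) and 28.6% (3.67 to 71.0%). The 8 cells were cells 35, 15, 21, 19, 47, 3, 49 and 50. Cell 3 counted through a single read, worth 6.78 RPKM in that shallow library, and without cells 3 and 7 the share was 7 of 8. The 2 Foxd1-only cells with Bmp7 were cell 41 and cell 25, the cell with ureteric bud markers. Without cells 25 and 27 the gene was found in 1 of 14 Foxd1-only cells. At 10 RPKM Bmp7 was found in 4 of 9 cells with both and 4 of 18 Six2-only cells, an excess of 22.2 points.

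This look at cells with both genes was chosen after the values of Bmp7 were seen. A share at least 25 percentage points above both Six2-only and Foxd1-only cells was reached by 4.19% of all 13093 genes, and of the 8 members Bmp7 was the 1 that reached it. Among genes found in 5 or more cells 5.26% reached it. An excess as large as that of Bmp7 over both classes (55.6 and 75.6 points) was reached by no other gene of the table. Bmp7 itself thus makes up 0.00764% of all genes and 0.0454% of the 2201 genes found in 14 to 22 cells. Both cut-offs are the values of Bmp7 itself, and the range of cells lies around the 18 cells with Bmp7. These shares therefore cannot measure how rare the pattern is, and no conclusion is drawn from them. The number of genes found per cell moved with Bmp7. Its Spearman correlation with that number was 0.62 across 49 cells, a value reached by 4 of 8421 genes found in 10 or more cells, Bmp7 included, and cells with Bmp7 had a median of 5953 genes against 4832 in the others. Among the 25 cells at or above the median number of genes, Bmp7 was found in 6 of 7 cells with both, 5 of 8 Six2-only cells, 2 of 8 Foxd1-only cells and 1 of 2 with neither. Among the 24 cells below it, the gene was found in 2 of 2 cells with both, 1 of 10 Six2-only cells, 0 of 7 Foxd1-only cells and 1 of 5 with neither. In the gene-rich cells the excess over Six2-only cells was 23.2 points, less than the 25 points used here. Summed G2 and mitosis genes had a median of 821 RPKM in cells with Bmp7 and 92.8 RPKM in those without. Their ranges overlap, 13.8 to 8219 RPKM and 3.55 to 4184 RPKM, and the Spearman correlation with Bmp7 over 49 cells was 0.35. The part of gene number and of the cell cycle in the result was not tested.

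**Figure D1:**
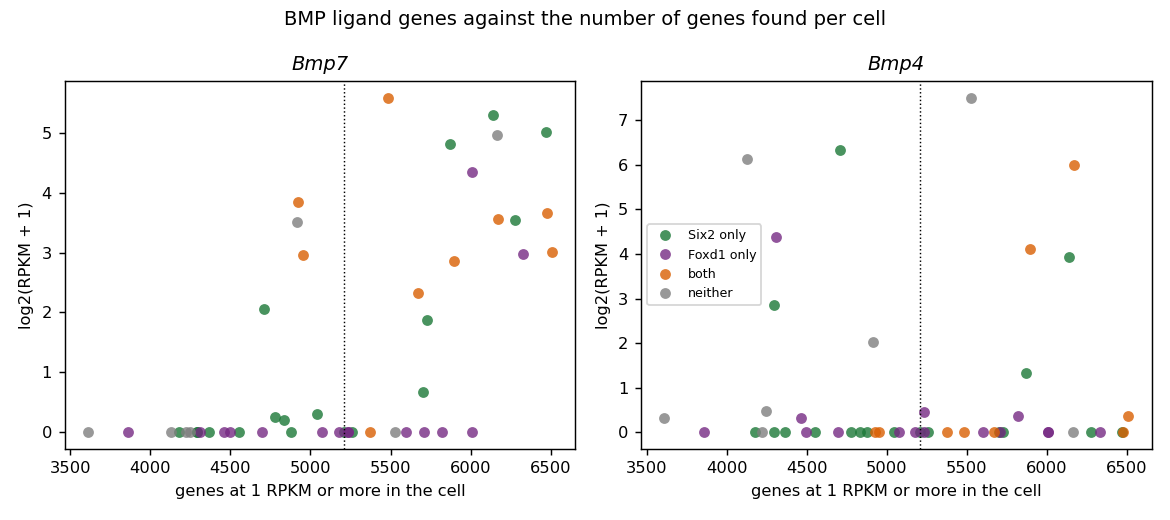
Levels of Bmp7 (left) and Bmp4 (right), as log2(RPKM + 1), against the number of genes at 1 RPKM or more in the same cell, 1 point per cell, coloured by Six2 and Foxd1 status, with a dotted line at the median of 5210 genes. Bmp7 was found in 14 of the 25 cells at or right of the line and in 4 of the 24 left of it, whereas Bmp4 was found in 5 on each side.

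Of all 27 cells with Six2, with or without Foxd1, 14 had Bmp7, where independent detection would give 9.92, and 8 of the 14 also had Foxd1. The Spearman correlation of Bmp7 with Six2 was 0.47 over 49 cells. In the 30 cells with Crym at 10 RPKM or more Bmp7 was found in 15, and in the 19 cells with less Crym in 3.

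The receptor gene Bmpr1a was the most widely found signalling component of the set. Bmpr1a (gene ID 12166; chr14:35224254-35315732) encodes a type I BMP receptor kinase and was found in 40 of 49 cells (81.6%, interval 68.0 to 91.2%), and its median over all cells was 14.8 RPKM. In 48 cells it was above 0. Cell 34 had the highest level, 201 RPKM, and cell 30 the next, 112 RPKM. In Six2-only cells the lowest, median and highest levels were 0.0747, 10.8 and 201 RPKM, and in Foxd1-only cells 0, 24.6 and 112 RPKM. These ranges overlap widely. Cells with both genes reached 49.8 RPKM, with a median of 11.3 RPKM, and cells with neither reached 59.9 RPKM, with a median of 2.14 RPKM. Because the transcript is long, 1 RPKM of Bmpr1a corresponds to about 10.3 reads in a cell of median depth, and 3 or more reads were present in 95.9% of cells.

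Smad1 and Smad5, which encode receptor-activated transducers of the BMP arm, were each found in part of the cells and not in the same ones. Smad1 (gene ID 17125; chr8:81862298-81923367) had a median of 1.43 RPKM over all cells and was found in 28 (57.1%, interval 42.2 to 71.2%). It was highest in cell 27, the cell with endothelial markers, at 72.0 RPKM, and cells 41 and 34 followed with 61.9 and 48.3 RPKM. Smad5 (gene ID 17129; chr13:56804371-56843739) had a median of 5.73 RPKM and was found in 34 cells (69.4%, interval 54.6 to 81.7%), up to 152 RPKM in cell 36. Both were found in 21 cells, close to the 19.4 of independent detection, Smad1 without Smad5 in 7, Smad5 without Smad1 in 13 and neither in 8 cells (4, 5, 8, 16, 22, 44, 45 and 49). Their Spearman correlation over 49 cells was 0.04. As with the receptor, low values held several reads. In a cell of median depth 1 RPKM corresponds to about 9.43 reads of Smad1 and 13.6 of Smad5. Of the 8 cells with neither gene at 1 RPKM, cells 4 and 44 were listed at 0 for both. The others held reads below the threshold, such as 10 of Smad1 in cell 8. At 3 or more reads Smad1 was found in 79.6% of cells, against 57.1% at 1 RPKM.

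By class, Smad1 had lowest, median and highest levels of 0, 1.33 and 48.3 RPKM in Six2-only cells and 0, 2.27 and 61.9 RPKM in Foxd1-only cells. For Smad5 they were 0, 2.90 and 152 RPKM in Six2-only cells and 0, 19.2 and 71.2 RPKM in Foxd1-only cells. Neither gene separated the classes. Smad1 was found in 11 of 18 Six2-only cells, 11 of 15 Foxd1-only cells, 4 of 9 cells with both and 2 of 7 with neither. Smad5 was found in 12 of 18, 12 of 15, 7 of 9 and 3 of 7. A receptor transcript with at least 1 of the 2 Smad transcripts was found in 35 cells (71.4%, interval 56.7 to 83.4%), and 16 of these also had Bmp4 or Bmp7. Pair by pair, the receptor gene was close to independent detection. Bmpr1a shared 24 cells with Smad1 and 30 with Smad5, where independence would give 22.9 and 27.8. It shared 8 with Bmp4 and 16 with Bmp7, where independence would give 8.16 and 14.7. Bmp4 and Smad1 were shared by 2 cells, where independent detection would give 5.71, and their Spearman correlation was -0.45. With only 10 cells holding Bmp4, this is a description of few cells.

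The Id genes spanned the widest range of levels in the set. Id3 (gene ID 15903; chr4:135699737-135701307) was found in all cells but 1 (98.0%, interval 89.1 to 99.9%). Its median was 545 RPKM, and its mean of 585 RPKM was above that of 99.1% of genes in the table. Id2 (gene ID 15902; chr12:25778664-25780957) was found in every cell (49 of 49, interval 92.7 to 100%), its median was 356 RPKM, and its mean was above that of 98.5% of genes. Id1 (gene ID 15901; chr2:152562010-152563146) was found in 29 cells (59.2%, interval 44.2 to 73.0%). Its median was 3.93 RPKM over all cells and 35.1 RPKM where it was found. RPKM is scaled to gene length, but the gene models behind it are not given and molecules were not counted. The order of the 3 genes is thus one of RPKM, not of transcript numbers. Id3 was above Id2 in 36 cells, Id2 was above Id1 in 47, and Id1 was above Id3 in none (0 of 49, interval up to 7.25%). All 3 genes were found together in 29 cells, the same 29 that had Id1.

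The 250 bases before the start sites of Id2 and Id3, the 2 highest genes of the set, are shown from RefSeq on build GRCm38.p6, to set their promoters side by side. Capitals mark GGCGCC, a palindrome known from BMP-responsive elements of Id1, and CAGAC or its reverse complement GTCTG, a Smad binding core, searched on both strands. The 2 motifs share no letters in these windows.
Id2, chr12:25096093-25096342, minus strand: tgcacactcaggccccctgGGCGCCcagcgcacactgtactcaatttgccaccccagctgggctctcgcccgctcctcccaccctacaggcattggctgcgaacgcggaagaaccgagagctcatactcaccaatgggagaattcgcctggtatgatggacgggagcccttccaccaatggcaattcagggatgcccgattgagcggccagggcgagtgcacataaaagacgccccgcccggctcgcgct
Id3, chr4:136143572-136143821, plus strand: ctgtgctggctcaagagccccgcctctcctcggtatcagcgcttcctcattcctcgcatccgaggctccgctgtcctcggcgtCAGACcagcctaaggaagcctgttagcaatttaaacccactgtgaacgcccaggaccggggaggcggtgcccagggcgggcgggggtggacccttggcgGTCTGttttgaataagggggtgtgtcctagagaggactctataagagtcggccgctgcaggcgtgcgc
The Id2 window held GGCGCC at 1 place and CAGAC at none, and the Id3 window held CAGAC at 2 places and GGCGCC at none. Of 32851 promoter windows of this length, 9.59% held GGCGCC and 42.2% held CAGAC, and a match is a description, not a binding site. Of the 9 genes of the set 7 matched the promoter table, all but Id1 and Bmp7. GGCGCC was also present in the windows of Grem1, Bmpr1a and start 2 of Smad5, and CAGAC in those of Grem1 and start 3 of Smad5. The windows of Bmp4 and Smad1 held neither motif.

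A few cells departed sharply from the common levels of Id2 and Id3. Id2 was at 42.2 to 964 RPKM in 45 cells and at 2.62 to 7.25 RPKM in the other 4, with none in between. These were cell 8 at 2.62 RPKM, cell 14 at 3.89, cell 13 at 4.21 and cell 27 at 7.25 RPKM, which correspond to 8, 9, 15 and 23 reads. The shallow cells are not among them, and cells 3 and 7 had 111 and 166 RPKM of Id2. In the same 4 cells Id3 stood at 238, 418, 586 and 68.2 RPKM. Id3 in turn was listed at 0 in cell 29, a Six2-only cell with 305 RPKM of Id2, and was otherwise lowest in cell 27. Cell 27 had Id1 listed at 0, and its endothelial markers summed to 1125 RPKM.

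Id1 had the largest spread of the 3 Id genes, at a far lower level. Its SD of log2(RPKM + 1) over cells was 2.65 around a mean of 2.71. For Id2 the SD was 1.93 around 7.80, and for Id3 1.63 around 8.71. Smad5, also a low gene, had 2.36 around 2.92. Cells 28, 35 and 5 had the most Id1, 122, 104 and 99.8 RPKM, and 18 cells listed Id1 at 0, which adds to its spread. For this short gene 1 RPKM corresponds to about 1.68 reads in a cell of median depth, so the cells between 1.19 and 1.65 RPKM held 2 or 3 reads. In cells 3 and 7 the gene was listed at 0, and 1 read there would have been worth 17.2 and 12.9 RPKM, so a low level was not detectable. Cells with Id1 had a median of 58.0 RPKM of summed immediate early and stress genes, 595 RPKM of G2 and mitosis genes and 5482 genes found. Cells without it had medians of 30.0 RPKM, 71.4 RPKM and 4804 genes. The ranges overlap widely, for G2 and mitosis genes 4.78 to 4184 RPKM with Id1 and 3.55 to 8219 RPKM without. Over the 49 cells Id1 had Spearman correlations of 0.20, 0.24 and 0.29 with these measures, in that order. The part of these differences in the pattern of Id1 was not tested.

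**Figure D2:**
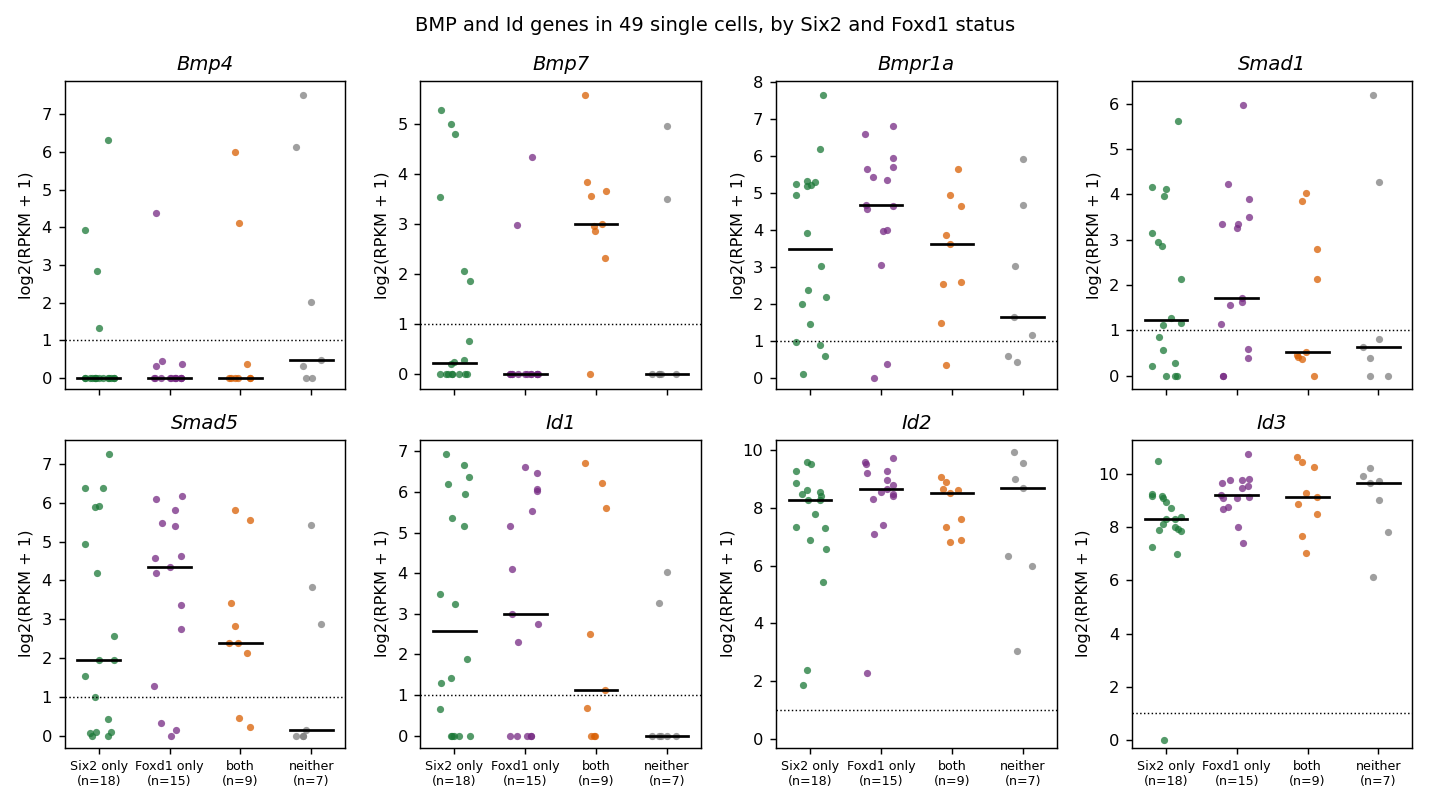
Levels of the 8 genes as log2(RPKM + 1) on the vertical axis, 1 point per cell, in cells with Six2 only (18), Foxd1 only (15), both (9) and neither (7). Black bars are medians and the dotted line is 1 RPKM. Id2 and Id3 sit high in nearly all cells, with 4 low cells for Id2 and 1 cell at 0 for Id3, and Bmp7 is raised off the floor in 8 of the 9 cells with both.

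Six2-only and Foxd1-only cells were compared for each gene by the share of cells with it and by its mean log2(RPKM + 1). None of the 8 members differed in share by 25 points or more, a size reached by 12.1% of all genes, 5.80% in the direction of Six2-only cells and 6.30% in that of Foxd1-only cells. Among genes found in 5 or more cells, 15.4% reached it, 7.42% and 7.96% by direction. Id2 and Id3, found in 49 and 48 of the 49 cells, could not have reached it. The share in Six2-only cells minus that in Foxd1-only cells was 20.0 points for Bmp7, 15.6 for Bmp4, 0 for Id1 and Id2, -5.56 for Id3, -8.89 for Bmpr1a, -12.2 for Smad1 and -13.3 for Smad5. The exact intervals of the 2 shares overlap for every member. These differences depend on the thresholds. That of Bmp7 was 42.2 points with detection at 0.1 RPKM, 30.4 and 30.0 with classes at 5 and 10 RPKM and 26.2 without cells 25 and 27. That of Bmpr1a was -30.0 with detection at 10 RPKM and 1.11 at 0.1 RPKM, and that of Smad5 was -28.9 at 3 RPKM. That of Bmp4 was 25.0 with classes at 5 or 10 RPKM and -4.44 with detection at 0.1 RPKM. The median over the 8 members was -2.78 points, beside 0 over all genes.

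On the scale of levels, 1 member of 8 passed a difference of 1 in mean log2(RPKM + 1), a size reached by 16.5% of all genes in either direction by 7.78% with higher levels in Foxd1-only cells and by 8.75% with higher levels in Six2-only cells. Among genes found in 5 or more cells these shares were 21.0%, 9.88% and 11.1%. That member was Id3, with a mean of 8.01 in Six2-only cells and 9.22 in Foxd1-only cells, a difference of -1.21. Its lowest, median and highest levels were 0, 317 and 1467 RPKM in Six2-only cells and 168, 590 and 1746 RPKM in Foxd1-only cells. The ranges overlap, and the difference was -0.74 without cell 29. Bmpr1a (-0.97), Id2 (-0.87) and Smad5 (-0.82) were lower in Six2-only cells by less than 1, and Bmp7 (0.85) was higher by less than 1. These 4 passed 1 under some settings. Id2 had -1.47 and -1.53 with classes at 5 and 10 RPKM. Bmp7 had 1.80 with a pseudocount of 0.1, and 1.23 and 1.19 with those classes. Smad5 had -1.27 and Bmpr1a -1.03 with a pseudocount of 0.1. For Smad1 and Id1 the differences were -0.39 and -0.17, and for Bmp4 it was 0.43, or 1.12 with classes at 10 RPKM. This scale understates the change of low genes. With 1 sample there is no replicate check on any of these differences.

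**Figure D3:**
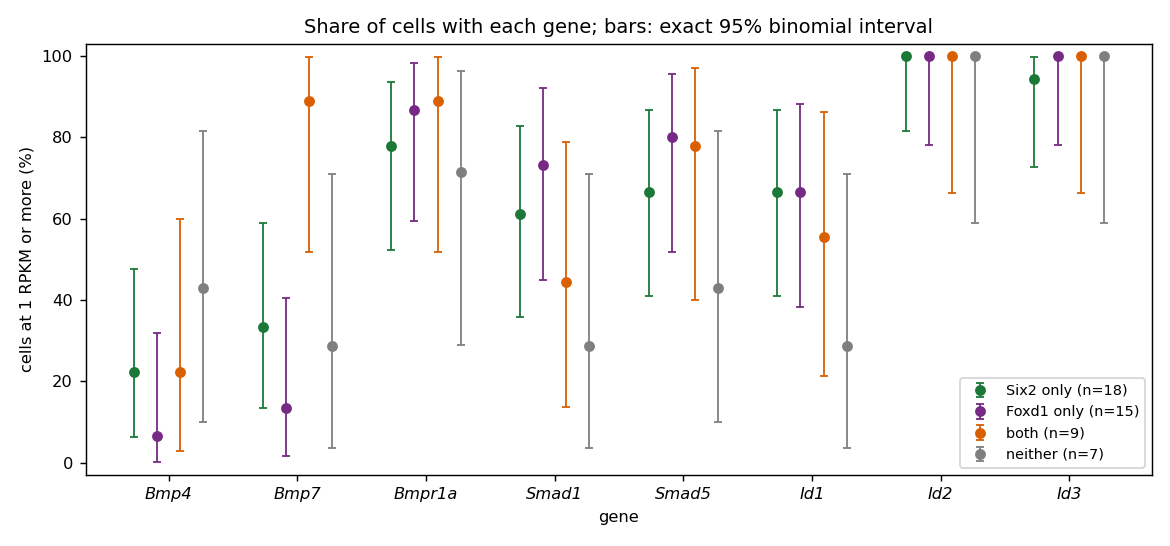
Share of cells with each gene at 1 RPKM or more, in percent, for cells with Six2 only (18), Foxd1 only (15), both (9) and neither (7), with exact 95% binomial intervals as bars. The intervals of the 4 classes overlap for each gene except Bmp7, where the share of 88.9% in cells with both lies above the interval of Foxd1-only cells (1.66 to 40.5%). The look at cells with both was chosen after the values of Bmp7 were seen, and the intervals treat cells as independent draws.

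Id3 and Id2 varied together from cell to cell, and with the stroma markers. Their Spearman correlation over the 49 cells was 0.51, while Id1 had 0.22 with Id2 and 0.19 with Id3. Against the summed level of the 10 stroma markers, Id3 had a correlation of 0.65, a value reached by 14 of 8411 genes, Id3 included, found in 10 or more cells (0.166%). Id2 had 0.51, reached by 0.761% of genes, and Id1 had 0.29, reached by 6.72%. The median over genes was 0.01. Within the 18 Six2-only cells the correlation with the stroma markers was 0.58 for Id3, 0.55 for Id2 and 0.30 for Id1. Within the 15 Foxd1-only cells the order was different, with 0.45 for Id1, 0.30 for Id3 and 0.01 for Id2. Id3 also had -0.38 with the summed nephron progenitor markers, Crym among them, and -0.45 with Crym alone. In the 19 cells with Crym under 10 RPKM the median of Id3 was 718 RPKM, and in the 30 other cells it was 348 RPKM. All of these values come from the same cells and libraries and carry no p-value.

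**Figure D4:**
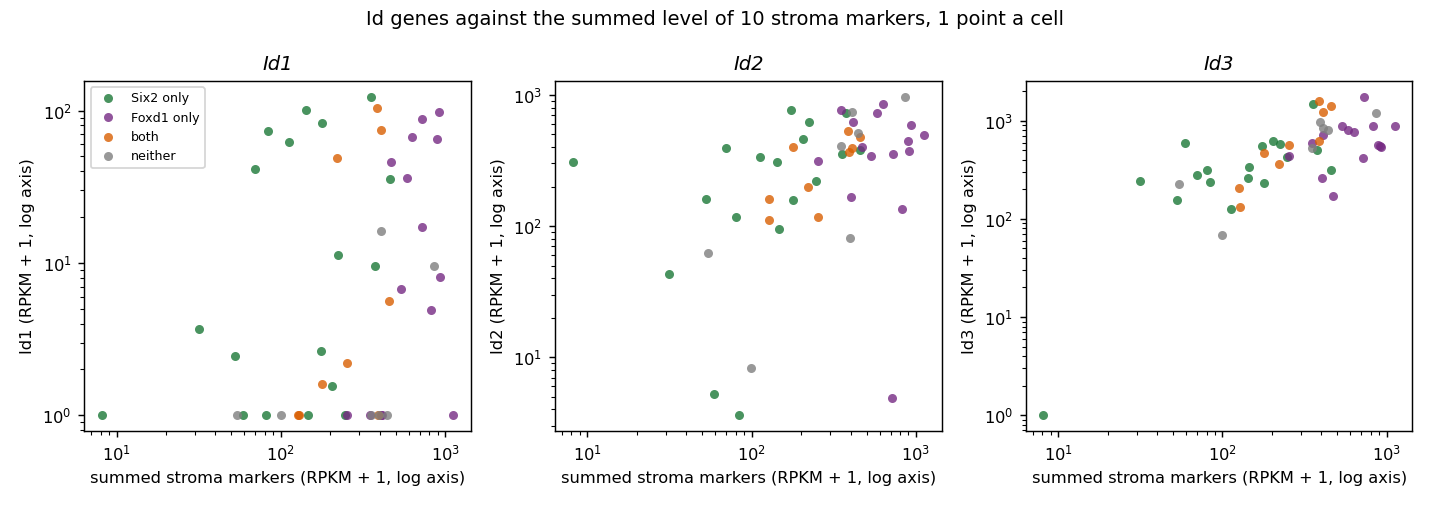
Id1, Id2 and Id3 (vertical, RPKM + 1, log axis) against the summed level of 10 stroma markers in the same cell (horizontal, RPKM + 1, log axis), 1 point per cell, coloured by Six2 and Foxd1 status. Id3 climbs with the stroma markers (Spearman 0.65), Id2 less so (0.51) with a few cells far below the others, and Id1 has 0.29 over all cells.

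The other genes of the pathway were taken from lists for ligands, extracellular modulators, receptors, Smads, target genes and E proteins. Of the 48 listed symbols 34 had a row. Of these 34 genes 4 differed by 25 points or more between Six2-only and Foxd1-only cells, 2 in each direction, near the 12.1% of all genes. The genes higher in Six2-only cells were Smad4, the common partner of Smad1 and Smad5, and Tcf3, which encodes the E proteins E12 and E47. Smad4 was found in 14 of 18 Six2-only cells and 6 of 15 Foxd1-only cells (37.8 points), and in all 9 cells with both. Tcf3 was found in all 18 Six2-only cells and 9 of 15 Foxd1-only cells (40.0 points). In the other direction were Bmp1, a metalloprotease that cleaves the BMP antagonist chordin and procollagen, in 6 of 18 against 10 of 15 cells (-33.3 points), and Crim1, a transmembrane protein that binds BMPs, in 1 of 18 against 5 of 15 (-27.8 points).

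No other ligand came near Bmp7 in breadth. Bmp5 was found in 6 cells, Bmp8a in 2 and Bmp2 in 1. Bmp5 reached 196 RPKM in cell 37, a Foxd1-only cell that also had the highest Id3 level, 1746 RPKM, but that is 1 cell. Over the 49 cells, Spearman correlations of the ligand, receptor and Smad members with the Id genes ran from -0.21 (Smad1 with Id1) to 0.33 (Bmpr1a with Id2). With Id3, Bmp4 had 0.02 and Bmp7 had -0.14. Among modulators, Fstl1, a secreted follistatin-like protein, was found in every cell and had a median of 216 RPKM. Twsg1 was found in 35 cells, Bmper in 29, Rgmb, a BMP co-receptor, in 26 and Bmp1 in 23. Fstl1 was found in every cell of both classes, yet its mean log2(RPKM + 1) in Six2-only cells minus that in Foxd1-only cells was -3.44. By this measure 6 of the 34 genes passed 1, beside 16.5% of all genes, 3 in each direction. Higher in Six2-only cells were Tcf3 (1.86), Smad4 (1.73) and Smad2 (1.21), and lower were Fstl1, Bmp1 (-1.84) and Tcf12 (-1.21), an E protein gene like Tcf3. Fst, which encodes follistatin, was found in 6 cells, Bambi, a decoy receptor, in 9 and Crim1 in 7.

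Of the receptors only Acvr2b, a type II receptor, reached 20 cells beside Bmpr1a, with 21. Bmpr2, the type II BMP receptor, was found in 19 cells, Acvr2a in 12, Bmpr1b in 9 and Acvr1 in 8. Smad4 was found in 33 cells, the ubiquitin ligase gene Smurf2 in 25 and the inhibitory Smad7 in 20, while Smad6, also inhibitory, was found in 5 and Smad9, the remaining BMP-arm Smad, in 2. Smad2 and Smad3, which serve activin and TGF-beta receptors, were found in 28 and 31 cells. Among further target genes Hey1 was found in 11 cells and Id4 in 5. The E proteins that Id proteins bind were widespread, with Tcf4 in 48 cells, Tcf12 in 41 and Tcf3 in 39.

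**Figure D5:**
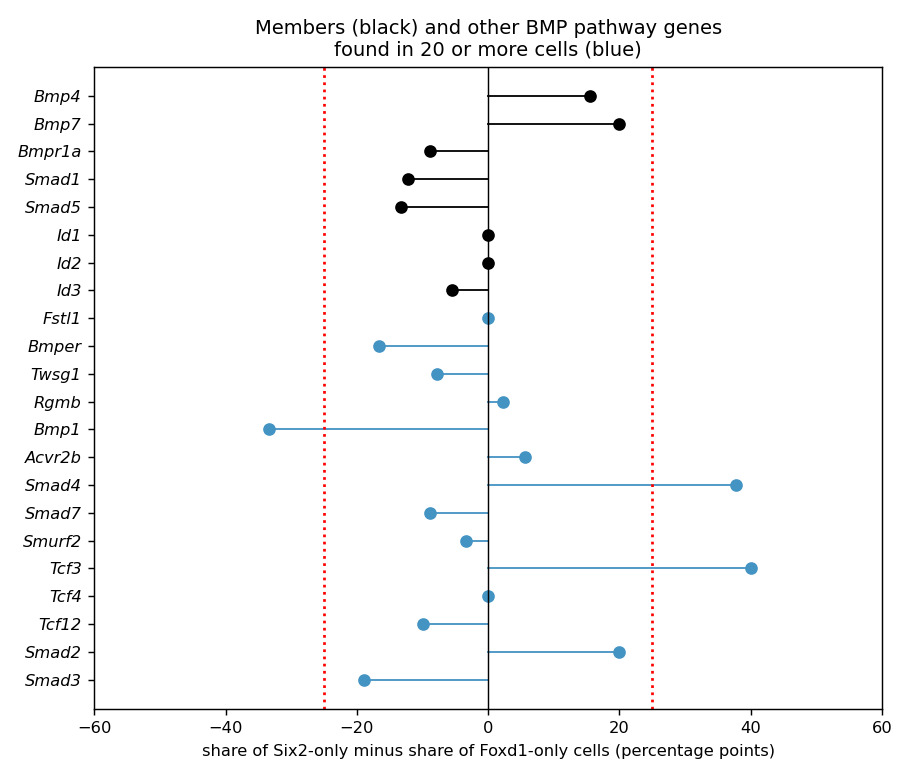
Share of Six2-only cells minus share of Foxd1-only cells with each gene, in percentage points, for the 8 members (black) and the 14 other pathway genes found in 20 or more cells (blue), with dotted lines at 25 points. No member passes a line, and of the blue genes Tcf3 (40.0) and Smad4 (37.8) pass on the right and Bmp1 (-33.3) on the left. Id2 and Id3, found in nearly all cells, could not have passed.

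For each member, the genes most like it across the 49 cells were ranked by Spearman correlation among 8421 genes found in 10 or more cells, taking the first 3 and giving those at 0.5 or more. For Id3 these included Snai2 (0.64), a zinc finger repressor gene, and Crabp1 (0.63), a retinoic acid binding protein gene, while Id2 stood at rank 17. For Id2 they included Glg1 (0.55) and Rgs5 (0.52), and Id3 stood at rank 4. Id1 was most like Atat1 (0.59), Nkain3 (0.57) and 3200002M19Rik (0.53). For Bmp7 they were Rabep2 (0.68), Cited2 (0.59) and Tbcd (0.58). Smad1 was most like Irf2 (0.59), Zfp72 (0.52) and Noxo1 (0.52), Bmpr1a was most like Rgs12 (0.57), and Bmp4 was most like Mad2l2 (0.52). Smad5 had none at 0.5. These are the highest values of a long ranking, and several of the genes were found in few cells, such as Rabep2 and Irf2 in 10 each.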

How the data were processed

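The deposited table holds RPKM values per gene and cell, as its headers name them. The submitters' processing notes list TopHat 1.4.1, DESeq and build mm9 without saying what each was used for, with the read counter and its gene models not given in the sources used here. Per the labels' protocols, cells were captured on a Fluidigm C1 chip whose chambers were viewed under a microscope, complementary DNA was made with SMARTer chemistry, and libraries with Nextera XT. This keeps neither strand nor molecular identifiers, and reads of overlapping genes cannot be told apart. All 13093 genes exceed 3 RPKM in at least 1 cell. Genes low throughout are thus not analysed here. All columns of cells were used (0 left out), no cell was filtered, and with 49 cells doublets were not called.

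The members and lists were chosen with earlier results of these data known. Relative depth came from the densest window (2e-05 in the natural log) of ratios to cell 1 among genes below 8 RPKM. Read totals came from 97 single-exon genes, of which 93 agreed within 1%, using lengths counted with both end positions, and a step was taken as 1 read where at least 70.0% of a gene's lowest 10 values were whole within 0.05. Some values held fractions of reads, so counts of reads are equivalents. Computations used Python 3.11.15, pandas 2.3.3, numpy 2.4.6 and scipy 1.17.1, with a pseudocount of 1 RPKM.

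Named genes follow a rule: all members, Six2, Foxd1 and Crym, pathway genes found in 20 or more cells or differing by 25 points, the 3 most alike genes per member at 0.5 or more, and markers as lists. Some genes that this rule selects are not reported here. Other pathway genes with lower counts were named after their values were seen. Alternatives were other thresholds, classes at 5 or 10 RPKM, left-out cells, pseudocounts and a filter on low genes.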

Additional observations from a re-analysis of the deposited data

How the results depend on the processing

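Between Six2-only and Foxd1-only cells, only the level of Id3 among the members passed its threshold in the main setting. That difference kept its direction across the alternatives. The excess of Bmp7 in cells with both, looked at after its values were seen, also passed and kept its direction. Several member differences crossed the threshold. Differences under it changed sign for the share of Bmp4 at 0.1 RPKM (-4.44 points), the share of Bmpr1a at 0.1 RPKM and at 3 read equivalents (1.11 in both) and with classes at 5 RPKM (0.833), and the level of Id1 without cell 29 (0.0086). At 10 RPKM the share of cells was 22.4% for Bmp7, 57.1% for Bmpr1a, 24.5% for Smad1, 40.8% for Smad5, 38.8% for Id1 and 91.8% for Id2. At 0.1 RPKM it was 95.9% for Bmpr1a and 83.7% for Smad1, and at 3 read equivalents, chosen after seeing the data, 95.9% and 79.6%. The difference in share between Six2-only and Foxd1-only cells reached 25 points for Bmp7 at 0.1 RPKM (42.2), with classes at 5 RPKM (30.4) or 10 RPKM (30.0) and without cells 25 and 27 (26.2), for Bmp4 with classes at 5 or 10 RPKM (25.0 in both), for Smad5 at 3 RPKM (-28.9) and for Bmpr1a at 10 RPKM (-30.0). The difference in mean log2 level reached 1 with classes at 5 RPKM for Bmp7 (1.23) and Id2 (-1.47), at 10 RPKM for Bmp4 (1.12), Bmp7 (1.19) and Id2 (-1.53), without cells 3 and 7 for Bmpr1a (-1.01) and Smad5 (-1.08), without cells 25 and 27 for Bmp7 (1.02) and Smad5 (-1.06), and with a pseudocount of 0.1 for Bmp7 (1.80), Bmpr1a (-1.03) and Smad5 (-1.27). For Id3 it fell short without cell 29 (-0.74). The genes of the whole table past 1 numbered 2163, 4322 with a pseudocount of 0.1 and 379 with 10. The cause of these crossings was not tested. No paired analysis was possible because all cells form 1 group. Cells 3 and 7 limit what can be detected in them.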
